A study of Mus musculus with 52 samples.

Results

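Of 8794 mouse embryonic stem cell (mESC) enhancers listed by the authors, 684 were 5000 bp or longer and stood outside a first block of rows. These 684 regions are called long enhancers here. The other 7879 of the 8563 regions outside that block were shorter than 5000 bp and are called short enhancers. The rows of the block (first rows here) are sorted apart from the rest, and their number is that of the super-enhancers in the publication the list came from. The table itself has no column that marks a super-enhancer, so the name rests on row order. Of the first rows, 154 were 5000 bp or longer and served as a second comparison. Length and row number chose the long enhancers, and neither is a finding below.

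The series holds 52 chromatin immunoprecipitation sequencing libraries on a C57BL6/129Sv background, of which 43 are of mESCs and 9 of EpiLCs, or epiblast-like cells. The genotypes are cK27R, with lysine 27 mutated in canonical H3 alone; pK27R, with it mutated in all H3; SUZ12KO; an H3.3 knockout (H3-3KO) with addback of K27R or wild-type protein; and the control line ABE_7_10 (ABE). Each of cK27R and pK27R is represented by 2 clones. The mESCs were kept without feeders in LIF with inhibitors of GSK3 and MEK1. The deposited tables analysed here are an mESC enhancer list, a list of 16576 EpiLC enhancers and a gene list, all in mm10. Values per library are in 0 of their columns, so no mutant was compared with a control, depth is unknown, and every result below describes fixed lists of regions. Both enhancer lists came from earlier publications of other groups, per the series' design text, and hold for the cells of those publications and not for the clones of this series.

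Enhancers are stretches of DNA away from promoters at which transcription factors gather and from which they raise transcription of a gene. In naive mESCs many of them are bound by OCT4, a POU-domain factor, together with SOX2 and NANOG, and carry acetylated lysine 27 of histone H3. When mESCs turn into EpiLCs, a state close to the epiblast soon after implantation, OCT4 stays on but moves to other enhancers. In the publication behind the mESC list, factor binding sites that lay close together were joined into one region, and a region joined in this way begins and ends at a site. No source used here says whether each deposited region was drawn so.

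The sequences below are shown because the motifs of OCT4 and SOX2, like most motifs searched, were densest at the ends of long enhancers. They are windows of 100 bp around a SOX-POU composite core within 500 bp of an end, in long enhancers named in the results. Capitals mark the core, TTGTNATGC or its reverse complement. The first 4 windows (Sox11, Apela, Jarid2, Kat2b) lay wholly inside an EpiLC enhancer and the last 4 (Gbx2, Klf5, Shb, Ankfn1) wholly outside. The sequences are the plus strand of mm10 (GRCm38, RefSeq) and were chosen after their values were seen. Each is named by the gene whose transcription start lay nearest the centre of the enhancer.
Sox11, chr12:27321048-27321147: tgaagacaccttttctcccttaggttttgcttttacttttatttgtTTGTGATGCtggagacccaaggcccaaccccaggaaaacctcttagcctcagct
Apela, chr8:65062371-65062470: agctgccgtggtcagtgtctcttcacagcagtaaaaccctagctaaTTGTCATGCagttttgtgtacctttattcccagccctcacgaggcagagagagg
Jarid2, chr13:44755545-44755644: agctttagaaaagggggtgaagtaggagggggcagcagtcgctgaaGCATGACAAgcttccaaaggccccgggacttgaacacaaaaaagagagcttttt
Kat2b, chr17:53551630-53551729: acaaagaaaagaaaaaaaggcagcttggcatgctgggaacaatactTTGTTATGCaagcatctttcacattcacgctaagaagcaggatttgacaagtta
Gbx2, chr1:89923091-89923190: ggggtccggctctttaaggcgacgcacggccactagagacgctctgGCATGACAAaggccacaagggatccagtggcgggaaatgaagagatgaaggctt
Klf5, chr14:99266836-99266935: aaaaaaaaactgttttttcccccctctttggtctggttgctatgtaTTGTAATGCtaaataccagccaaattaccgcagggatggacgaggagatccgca
Shb, chr4:45526992-45527091: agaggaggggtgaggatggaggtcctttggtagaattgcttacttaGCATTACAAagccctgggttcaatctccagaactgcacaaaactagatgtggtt
Ankfn1, chr11:89611537-89611636: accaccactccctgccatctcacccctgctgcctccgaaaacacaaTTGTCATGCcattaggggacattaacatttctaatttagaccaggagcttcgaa
The windows of Jarid2, Shb and Ankfn1 lay in introns of those genes, and the other 5 were intergenic. Each match stood between 56 and 462 bp from an end of its enhancer. The same search found 9 such matches in the named long enhancers, and the window near Bcat1, in a non-coding exon, is not shown. The core was present in the central 500 bp of 626 of all 8563 enhancers outside the first rows (7.31%).

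For comparison, windows of 200 bp with the most distinct motifs were taken from long enhancers of pluripotency genes, and 2 of them, those of Nr0b1 and Klf5, are shown as examples of enhancers that touched no EpiLC enhancer, as did that of Gbx2. Both windows are intergenic, on the plus strand of mm10, and capitals mark motif matches on either strand.
Nr0b1, chrX:86188088-86188287: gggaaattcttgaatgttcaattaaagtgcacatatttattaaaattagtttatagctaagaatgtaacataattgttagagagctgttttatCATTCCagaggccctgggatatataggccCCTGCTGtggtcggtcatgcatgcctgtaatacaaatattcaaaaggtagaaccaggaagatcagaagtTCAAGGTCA
Klf5, chr14:99278062-99278261: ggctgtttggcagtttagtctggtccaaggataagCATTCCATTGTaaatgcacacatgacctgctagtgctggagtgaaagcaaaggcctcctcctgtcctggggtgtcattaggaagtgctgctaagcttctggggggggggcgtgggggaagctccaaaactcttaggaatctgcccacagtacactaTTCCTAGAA
The Nr0b1 window held a TEAD motif (CATTCC), a ZIC motif (CCTGCTG) and a nuclear receptor half-site (TCAAGGTCA). Nr0b1 encodes the orphan nuclear receptor DAX1, which is active in mESCs. The Klf5 window held a TEAD motif and a SOX motif (CATTGT) that shared 1 base, and a STAT motif (TTCNNNGAA). In the central 500 bp of the 8563 enhancers outside the first rows, the nuclear receptor half-site was found in 3.60%, ZIC in 18.8%, STAT in 17.1%, TEAD in 28.5% and SOX in 37.0%. A match is a run of letters and not evidence of binding.

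The long enhancers had a median length of 9266 bp, with quartiles of 6882 and 12117 bp and a maximum of 35621 bp. The short enhancers had a median of 679 bp, with quartiles of 557 and 831 bp. Both classes covered about as much DNA, 6.86 Mb in long and 6.38 Mb in short enhancers. In bins of 1000 bp, counts fell from 607 regions between 1000 and 2000 bp to 77 between 4000 and 5000 bp. Wider bins held 219 regions from 5000 to 7500 bp, 170 from there to 10000 bp and 241 from there to 15000 bp. Counts of bins that differ in width cannot be compared directly. Next to the threshold, the 3 long enhancers closest to it measured 5024 bp (near Ifitm2), 5025 bp (near Spaca3) and 5048 bp (near Adamtsl1), with 96.0%, 34.4% and 0% of their length in EpiLC enhancers. The 3 short ones closest to it measured 4973 bp (near Pdpn), 4938 bp (near Prdm14) and 4897 bp (near Fzd7), with 39.1%, 11.3% and 95.4%. The smallest gap between any mESC enhancers on a chromosome was 12516 bp. EpiLC enhancers were spaced down to 100 bp, and 4196 of their 16555 gaps (25.3%) were smaller than that. The nearest other mESC enhancer stood at a median of 51.5 kb from long and 72.2 kb from short enhancers.

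**Figure D1:**
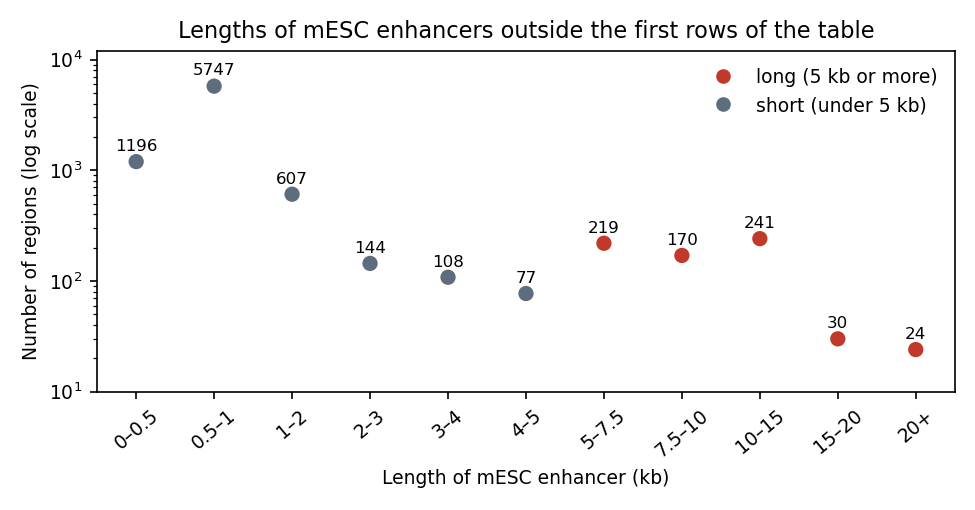
Number of mESC enhancers outside the first rows of the table (vertical axis, log scale) by length in kb (horizontal axis), with long enhancers in red and short enhancers in grey. Each point is 1 length bin with its count above it, and the bins differ in width. The 684 long enhancers include 241 between 10 and 15 kb, while 5747 of the short ones lie between 0.5 and 1 kb.

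Long enhancers touched an EpiLC enhancer more often than short ones, but their centres did so less often. Touching by any base was not matched for length, and a longer region touches more by its length alone. At least 1 bp was shared by 488 of 684 long enhancers (71.3%, exact 95% interval 67.8 to 74.7) and by 3062 of 7879 short enhancers (38.9%, 37.8 to 39.9). The difference was 32.5 points (two-sided Fisher's exact test, p = 1.68e-59 after Benjamini-Hochberg adjustment over 29 comparisons). Over all enhancers outside the first rows, the share that touched an EpiLC enhancer was 41.5%. With the central 500 bp as an equal window, the order turned round: 104 long enhancers (15.2%) and 2994 short enhancers (38.0%) were touched there, a difference of -22.8 points (Fisher's exact test, adjusted p = 2.06e-35). The window is equal in length only. It takes up most of a short enhancer of the median 679 bp, while the centre of a region joined from sites can lie between sites. The part of this in the difference was not tested. At least 50% of the length was covered in 93 long enhancers (13.6%) and 2803 short enhancers (35.6%), a difference of -22.0 points (Fisher's exact test, adjusted p = 9.30e-35). This share is tied to the length that chose the classes. EpiLC enhancers that touched long and short enhancers had median widths of 2150 and 2175 bp. A single one of that width can cover a typical short enhancer wholly, but not 50% of any long one. Regions are not replicates of a condition, and these p-values also depend on the numbers of regions. How far the 2 fixed lists differ is given by the difference in points and not by p.

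The first of these 3 results depended on which short enhancers were used. Against the 936 short enhancers of 1000 to under 5000 bp, of which 68.4% touched an EpiLC enhancer, the difference in touching was 2.97 points (Fisher's exact test, adjusted p = 0.318). The central window differed by more in that setting, with 15.2% of long and 61.5% of these short enhancers touched (Fisher's exact test, adjusted p = 2.68e-81). With overlap counted from 50% of the mESC and of the EpiLC region, 8.04% of long and 8.99% of short enhancers still counted (Fisher's exact test, adjusted p = 0.557). With a limit of 25% of the length, 35.8% of long and 38.0% of short enhancers were covered, which did not pass the test (Fisher's exact test, adjusted p = 0.397).

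Coverage of a long enhancer was usually partial. The median share of length inside EpiLC enhancers was 15.9% (quartiles 0 and 33.3%) in long enhancers. In short enhancers the share was mostly all or nothing, with 2446 fully covered (31.0%) and 4817 at 0 (61.1%), against 19 fully covered long enhancers (2.78%). Of all bases, 21.3% in long and 40.8% in short enhancers lay inside an EpiLC enhancer. A single EpiLC enhancer touched 274 long enhancers, 2 touched 177, 3 touched 30, 4 touched 6 and 5 touched 1, while 196 had none. Thus 214 long enhancers (31.3%) touched 2 or more listed EpiLC enhancers, as did 102 short ones (1.29%), a count that was not matched for length. Listed EpiLC enhancers can lie as little as 100 bp apart, so 2 of them need not be far from each other. The 747 EpiLC enhancers that touched a long enhancer had a median width of 2150 bp, close to the 2175 bp of the 3165 that touched a short one. The 12290 EpiLC enhancers that touched no mESC enhancer had a median width of 1625 bp.

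The EpiLC enhancers sat at the ends of long enhancers. Windows of 500 bp at the ends were added after the centre had been seen. In a region joined from factor binding sites, the ends are sites by definition, and the part of this in the results was not tested. The end with the lower coordinate (start end) was touched in 315 long (46.1%) and 2988 short enhancers (37.9%; Fisher's exact test, adjusted p = 1.00e-04). The far end was touched in 311 long (45.5%) and 2997 short enhancers (38.0%; Fisher's exact test, adjusted p = 0.000393). In short enhancers the 3 windows largely overlap, since their median length is 679 bp. In the 1196 enhancers under 500 bp, each window also reaches outside the region. The order at the ends was reversed against short enhancers of 1000 to under 5000 bp, in which 62.7% of start ends and 62.6% of far ends were touched (Fisher's exact test, adjusted p = 1.24e-10 and 3.73e-11). With a threshold of 10000 bp the far end did not pass the test (Fisher's exact test, adjusted p = 0.421).

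Within the long enhancers, 460 had an EpiLC enhancer at 1 or both ends, which is 94.3% of the 488 that touched any. In 365 long enhancers (53.4%) an end was touched and the centre was not, and in 9 (1.32%) the centre was touched and no end. Both ends were touched in 166 (24.3%), and in 19 of these (11.4%) by 1 and the same EpiLC enhancer. The far end was touched in 166 of 315 enhancers (52.7%) whose start end was touched, and in 145 of 369 (39.3%) whose start end was not (Fisher's exact test, adjusted p = 0.00117). With each long enhancer cut into 10 pieces of equal length, mean coverage was 42.0% in the first piece, 12.8% in piece 4 and 42.3% in piece 10. It was highest in the outermost pieces and lowest in the middle ones.

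**Figure D2:**
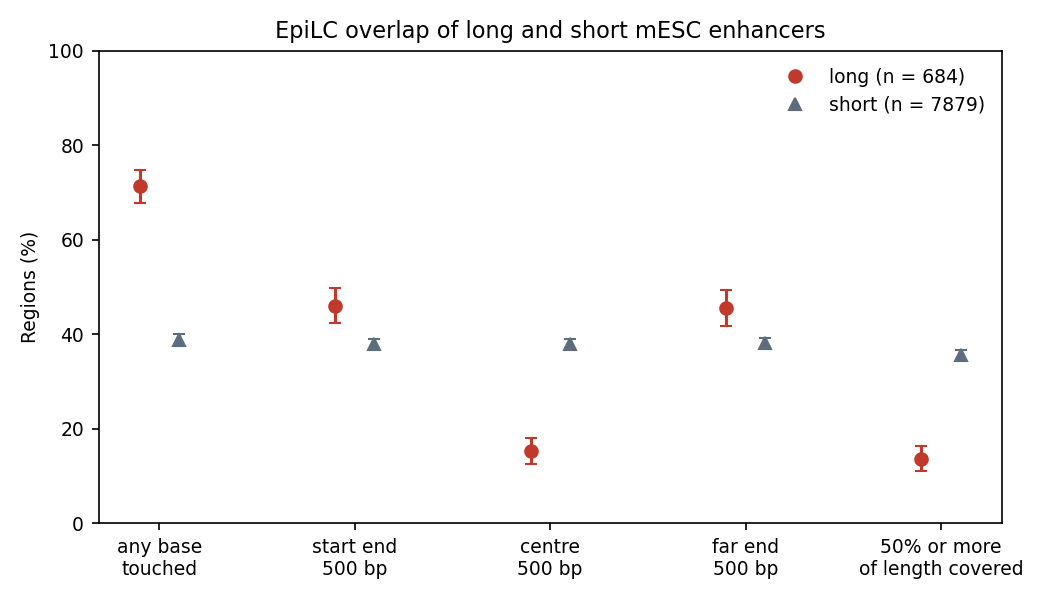
Share of regions (vertical axis, %) that met each EpiLC overlap measure (horizontal axis), for long (red circles, n = 684) and short mESC enhancers (grey triangles, n = 7879). Bars are exact 95% binomial intervals. Long enhancers stand above short ones for any base touched (71.3% and 38.9%) and at both ends, and below them at the centre (15.2% and 38.0%). Any base touched is not matched for length. Against only the short enhancers of 1000 to under 5000 bp, not drawn, touching was 71.3% and 68.4% and the order at both ends was reversed.

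Seen from the ends inward, coverage by EpiLC enhancers was 43.6% of bases in the first 500 bp of long enhancers and 42.2% in the next 500 bp. It was 23.0% between 1500 and 2000 bp and 7.78% between 4500 and 5000 bp, near the 6.80% found 2500 to 3000 bp outside the enhancer. The first 500 bp outside an end were covered to 35.3%, so many EpiLC enhancers extended beyond it. In the first-row regions of 5000 bp or more, coverage was 76.3% in the first 500 bp and 41.5% between 4500 and 5000 bp.

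**Figure D3:**
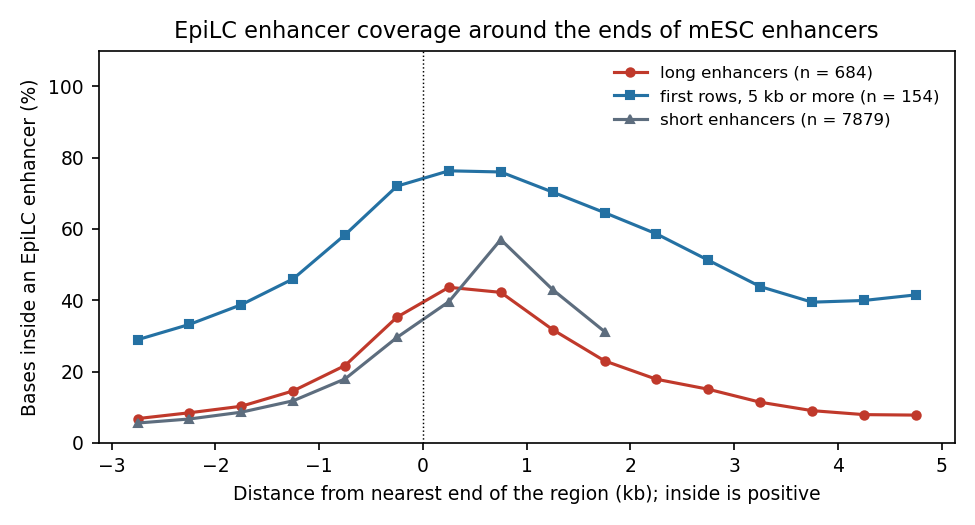
Bases inside an EpiLC enhancer (vertical axis, %) in bins of 500 bp by distance from the nearest end of the region (horizontal axis, kb; positive values are inside), for long enhancers (red circles), first-row regions of 5 kb or more (blue squares) and short enhancers (grey triangles). Only bins with at least 100 kb of sequence are drawn, and deeper bins hold longer regions only. Coverage in long enhancers is 43.6% just inside the end and 7.78% at 4.5 to 5 kb.

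By length, 70.8% of the 219 long enhancers under 7500 bp touched an EpiLC enhancer, 69.4% of the 170 from there to under 10000 bp, 71.0% of the 241 from there to under 15000 bp and 81.5% of the 54 of 15000 bp or more. The centre was touched in 26.0%, 10.0%, 7.47% and 22.2% of these classes. The median covered length was 1368, 1323, 1525 and 3189 bp. Under 15000 bp, longer members thus had about the same number of covered bases and a smaller covered share, from 22.9% to 12.3% at the median, as values with no test.

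Most motifs searched were denser at the ends as well. The POU octamer (ATGCAAAT), which OCT4 binds, occurred at 0.235 matches per kb in the first 500 bp of long enhancers (161 matches). The next 500 bp inside held 0.0921 per kb, the first 500 bp outside 0.0526 per kb, and the bin at 4500 to 5000 bp 0.0641 per kb. The SOX-POU composite core (TTGTNATGC), bound by SOX2 and OCT4 side by side, had 0.120 matches per kb in the first 500 bp (82 matches), 0.0482 per kb in the next and 0.0219 per kb outside. The first 500 bp of short enhancers held 0.216 octamers and 0.131 composite cores per kb. The KLF motif (GGGTGTGGC), bound by KLF4 and its relatives, had 0.0556 matches per kb in the first 500 bp of long enhancers, 0.0190 in the next and 0.0161 outside. The STAT motif had 0.336 per kb inside the end, 0.349 in the next bin and 0.365 outside. The SOX motif had 0.933 per kb inside the end, 0.675 in the next bin and 0.506 outside, the ZIC motif (CAGCAGG) 0.428, 0.335 and 0.235, and the TEAD motif (GGAATG) 0.715, 0.611 and 0.561. The nuclear receptor half-site had 0.0687 per kb inside the end, 0.0585 in the next bin and 0.0205 outside. The GRHL/TFCP2L1 motif had only 6, 1 and 2 matches in these bins. Thus 8 of the 9 motifs searched were denser in the first 500 bp inside an end than in the bins on either side, and STAT was not. No test was made of these densities, and the ends of a region joined from binding sites are sites by definition. Repeats made up 19.7% of the first 500 bp inside and 26.6% of those just outside.

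**Figure D4:**
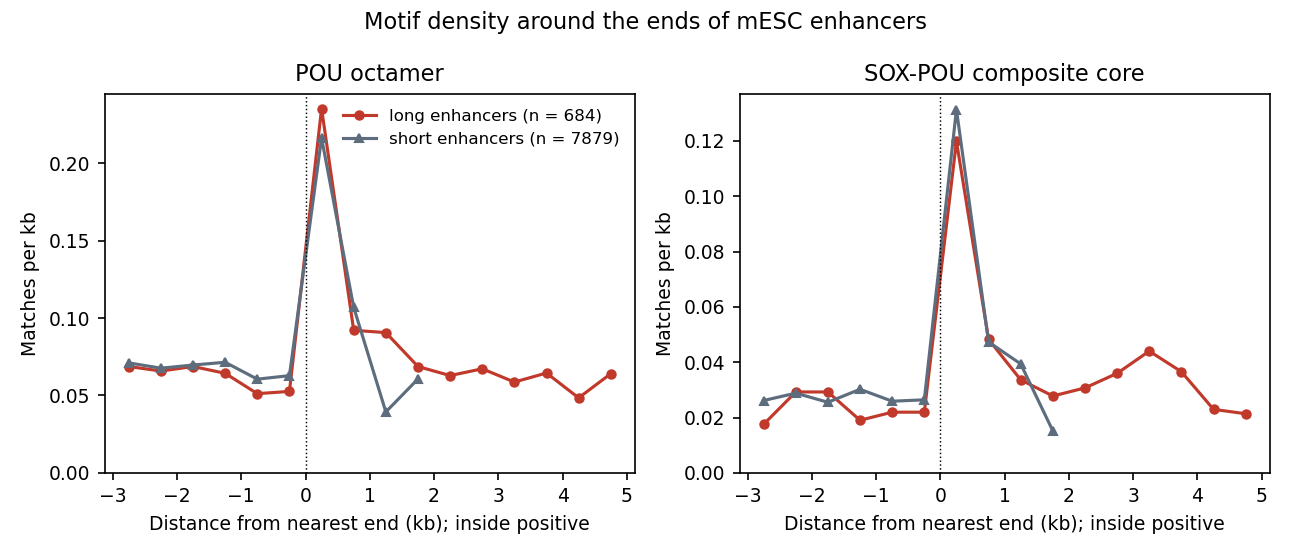
Matches per kb (vertical axis) of the POU octamer (left panel) and of the SOX-POU composite core (right panel) in bins of 500 bp by distance from the nearest end (horizontal axis, kb; positive values are inside), for long (red circles) and short mESC enhancers (grey triangles). Only bins with at least 100 kb of sequence are drawn. Both motifs peak in the first 500 bp inside the end, at 0.235 and 0.120 matches per kb in long enhancers.

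At the centre the same motifs were scarcer in long than in short enhancers. The octamer was present in the central 500 bp of 24 long (3.51%) and 891 short enhancers (11.3%; Fisher's exact test, adjusted p = 5.62e-12). The composite core was present in 9 long (1.32%) and 617 short enhancers (7.83%; Fisher's exact test, adjusted p = 4.64e-13). SOX motifs (CATTGT) were present in 190 long (27.8%) and 2978 short enhancers (37.8%; Fisher's exact test, adjusted p = 4.68e-07). The nuclear receptor half-site of ESRRB and its relatives was present in 12 long (1.75%) and 296 short enhancers (3.76%; Fisher's exact test, adjusted p = 0.00870). The KLF motif was found in 5 and 174 (0.731% and 2.21%, adjusted p = 0.0118), the TEAD motif (GGAATG) in 168 and 2274 (24.6% and 28.9%, adjusted p = 0.0261) and the ZIC motif (CAGCAGG) in 91 and 1517 (13.3% and 19.3%, adjusted p = 0.000218), by Fisher's exact test, in long and in short enhancers. STAT was found in 122 long (17.8%) and 1346 short enhancers (17.1%; Fisher's exact test, adjusted p = 0.766). The GRHL/TFCP2L1 motif (AACCGGTT) was found in 1 long and 18 short enhancers (Fisher's exact test, adjusted p = 1). In all, 7 of 9 motifs passed the test, all lower in long enhancers, and 4 of 9 did against short enhancers of 1000 to under 5000 bp, where the nuclear receptor half-site, KLF and TEAD no longer did. Low central shares of the octamer, composite core and SOX motif were not particular to long enhancers. In first-row regions of 5000 bp or more, the centre held them in 3.25%, 1.30% and 24.7%. The shares of TEAD, ZIC and STAT there were also below those of long enhancers. The nuclear receptor half-site (3.90%) and KLF (1.95%) were more frequent there than in long enhancers. These first-row shares were not tested. Both strands were searched. The composite core shares its last 4 letters with the octamer and its first 4 with the SOX motif, so a single site can count under several motifs. Median repeat content of the central window was 20.8% in long and 14.8% in short enhancers, and median GC content 44.2% and 45.2%; their part in the motif counts was not tested.

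The end windows of long enhancers held the octamer more often than their centres did, as values with no test. It was found in 73 start ends (10.7%, exact 95% interval 8.46 to 13.2) and 67 far ends (9.80%, 7.67 to 12.3) of long enhancers, beside 3.51% of their own centres and 11.3% of short centres. The composite core was found in 42 start ends (6.14%) and 37 far ends (5.41%), beside 7.83% of short centres. First-row regions of 5000 bp or more held the octamer in 9.74% of start ends, 9.09% of far ends and 3.25% of centres. Their shares for the composite core were 1.95%, 6.49% and 1.30%. Anywhere within their length, 362 long enhancers (52.9%) held an octamer and 229 (33.5%) a composite core. Inside long enhancers, bases covered by an EpiLC enhancer held 0.113 octamers and 0.0574 composite cores per kb, and uncovered bases 0.0791 and 0.0381 per kb. These densities were not matched for position. Coverage and octamer density were both higher in the first 500 bp (43.6% and 0.235 per kb) than at 4500 to 5000 bp (7.78% and 0.0641 per kb). The part of distance from the end in the contrast was not tested. At least 1 end window held the composite core in 57 of the 488 EpiLC-touching (11.7%) and 21 of the 196 other long enhancers (10.7%), a difference that did not pass the test (Fisher's exact test, adjusted p = 0.882). The octamer was in an end window of 90 (18.4%) and 37 (18.9%; Fisher's exact test, adjusted p = 0.981).

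Compared with first-row regions of the same minimum length, long enhancers shared less with EpiLCs. An EpiLC enhancer was touched by 71.3% of long enhancers and by 151 of 154 first-row regions (98.1%; Fisher's exact test, adjusted p = 1.20e-15). The centre was touched in 15.2% of long enhancers and in 80 first-row regions (51.9%; Fisher's exact test, adjusted p = 1.31e-19). At least 50% of the length was covered in 13.6% of long enhancers and in 94 first-row regions (61.0%; Fisher's exact test, adjusted p = 2.92e-31). Their lengths differed too, with a median of 9266 bp in long enhancers and 13159 bp in these first-row regions. With the length cut into 10 equal pieces, mean coverage in the first piece and in piece 5 was 42.0% and 13.5% in long enhancers, and 72.5% and 49.5% in first-row regions. In the first 500 bp from an end, the nuclear receptor half-site had 0.0687 matches per kb in long enhancers and 0.188 per kb in first-row regions, while the octamer had 0.235 and 0.195 per kb.

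Of 3 measures of position relative to genes, 1 differed between long and short enhancers, and that one by little. The centre fell inside a gene interval in 334 long (48.8%, exact 95% interval 45.0 to 52.6) and 3701 short enhancers (47.0%, 45.9 to 48.1), a difference of 1.86 points that did not pass the test (Fisher's exact test, adjusted p = 0.452) and was -1.37 points with overlong gene intervals kept. It lay within 1 kb of a transcription start site (TSS) of the gene list in 19 long (2.78%) and 230 short enhancers (2.92%; Fisher's exact test, adjusted p = 1). By the GENCODE M21 annotation, the centre was in an intron in 48.0% of long and 45.5% of short enhancers, intergenic in 40.2% and 42.5%, within 1 kb of any annotated TSS in 8.19% and 8.81%, and in a coding exon in 0.731% and 0.533%. A TSS within 50 kb of the centre was found for 447 long (65.4%) and 4707 short enhancers (59.7%), 5.61 points apart (Fisher's exact test, adjusted p = 0.00787). That last difference was -2.60 points against short enhancers of 1000 to under 5000 bp (Fisher's exact test, adjusted p = 0.366) and did not pass the test with a limit of 20 kb (adjusted p = 0.177) or with GENCODE start sites (adjusted p = 0.0906). A TSS of the gene list lay within 97 long (14.2%) and 113 short enhancers (1.43%), a count that was not matched for length.

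Against first-row regions of 5000 bp or more, the centres of long enhancers lay in genes more often and near a TSS less often. They were inside a gene in 48.8% of long enhancers and in 55 first-row regions (35.7%; Fisher's exact test, adjusted p = 0.00616), which did not pass with 10000 bp as the minimum length (adjusted p = 0.0888). A TSS lay within 50 kb in 65.4% of long enhancers and in 120 first-row regions (77.9%; Fisher's exact test, adjusted p = 0.00472). Nearness to the first-row regions did not differ past the test between long and short enhancers. Within 50 kb of one were 15 long (2.19%) and 162 short enhancers (2.06%; Fisher's exact test, adjusted p = 0.882), and 3 long (0.439%) and 74 short enhancers (0.939%) shared a nearest gene with one (Fisher's exact test, adjusted p = 0.397). EpiLC-touching and other long enhancers had their centre in a gene in 50.0% and 45.9%, which did not pass the test (Fisher's exact test, adjusted p = 0.452). By chromosome, the long share of enhancers outside the first rows ran from 4.21% on chromosome 18 (13 of 309) to 10.5% on chromosome 10 (49 of 467), with exact 95% intervals of 2.26 to 7.09% and 7.86 to 13.6%.

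Each long enhancer was tied to the named gene whose TSS lay nearest its centre, if that TSS was inside it or within 50 kb of its edge. The limit thus differs from the 50 kb from the centre used above. By this rule 462 long enhancers were tied to 446 genes, and 222 were not tied. Of 23624 named genes, 1.89% thus had a long enhancer. A single long enhancer was tied to 430 of the genes and 2 were tied to 16. Proximity is not evidence that an enhancer acts on a gene.

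The lists of pluripotency genes had the highest shares. Of 21 naive pluripotency genes in the gene table, 4 had a long enhancer (Gbx2, Klf5, Dppa2 and Nr0b1). Of 16 general pluripotency genes, 3 had a long enhancer (Tcf7l1, Foxd3 and Mycn). Over all 18 lists, 23 of 340 distinct genes (6.76%) had one, beside 1.89% of all named genes. The lists were chosen with earlier results of these data known, and no test was made of them.

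The 4 naive genes differed in what their long enhancers shared with EpiLCs. Gbx2, a homeodomain factor that sustains naive pluripotency, had a long enhancer of 12564 bp over its own TSS (chr1:89922754-89935317) with no EpiLC enhancer. Klf5, a zinc finger factor of naive mESCs, had one of 12521 bp at 19.7 kb from its TSS (chr14:99266470-99278990), and it too had none. Nr0b1 had one of 6907 bp over its TSS (chrX:86187171-86194077), again with none. Dppa2, a chromatin-binding protein of early embryos, had one of 7577 bp over its TSS (chr16:48303362-48310938), which 2 EpiLC enhancers covered to 84.8%. The enhancers of Gbx2 and Klf5 carried 1 composite core each, at 383 and 412 bp from their start ends, and those of Nr0b1 and Dppa2 carried none.

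The 3 general pluripotency genes had 5 long enhancers, of which 5 touched an EpiLC enhancer and 0 were touched at the centre, beside 71.3% and 15.2% over all long enhancers. Tcf7l1, a repressor in the Wnt pathway, had 2, of 8633 bp over its TSS (covered to 60.6%) and of 5139 bp in its own interval (46.0%), each touched at both ends. Foxd3, a forkhead repressor, had 2, of 6834 and 5662 bp, covered to 24.4% and 13.7% and touched at the far end. Mycn, a MYC-family factor, had 1 of 5127 bp at 41.0 kb, covered to 12.6%. Of 20 formative and primed epiblast genes, 1 had a long enhancer, beside 1.89% of all named genes. It was Sox11, a SOX factor of epiblast and neural cells. Its long enhancer had 9337 bp at 21.6 kb from its TSS, touched at both ends by 2 EpiLC enhancers that covered 22.4%.

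Among the signalling lists, the LIF and STAT3 pathway had 1 of 11 genes with a long enhancer, the FGF and ERK pathway 2 of 17, the Wnt pathway 1 of 22 and the TGF-beta and BMP pathway 0 of 24. These small counts stand beside 1.89% of all named genes and were not tested. Pim1, a kinase induced by STAT3, had one of 9567 bp at 14.0 kb that was covered to 98.2%, the fullest in these lists. Fgfr2, an FGF receptor, had one of 13187 bp in its interval, touched at both ends and covered to 14.7%. Etv1, an ETS factor induced by ERK signalling, had one of 5472 bp over its TSS, covered to 39.3%. Lgr4, a receptor for R-spondins that strengthens Wnt signalling, had one of 7825 bp with 3 EpiLC enhancers and 19.2% covered.

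Among chromatin regulators, 3 of 28 Polycomb genes and 3 of 26 acetylation and Mediator genes had a long enhancer. Jarid2, a subunit that helps target Polycomb repressive complex 2, had 2, of 9219 and 7210 bp, each covered to 88.9%. Ezh2, the catalytic subunit that methylates lysine 27 of H3, had one of 7027 bp at 6.86 kb, touched at both ends by 2 EpiLC enhancers. Aebp2, another cofactor of the complex, had one of 6221 bp covered to 21.9%. Sirt1 and Hdac2, which encode deacetylases, had one each, of 13499 and 12339 bp, covered to 11.3% and 4.25%. Kat2b, an acetyltransferase, had one of 11047 bp, touched at both ends and covered to 48.9%. Of the 11 DNA methylation genes and of the 10 genes for H3.3 and its chaperones 0 had one, beside 1.89% of all named genes.

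Developmental and cell cycle genes followed, with shares of 4.17% to 7.69% per list beside the 1.89% of all named genes, and no test. Each of the lists of neural (24 genes), mesoderm and endoderm (21), trophoblast (14), germ cell (13) and cell cycle genes (20) had 1 gene with a long enhancer. These were Neurog1, a neurogenic factor (7818 bp over the TSS, 5.21% covered), Snai1, a repressor of epithelial genes (10686 bp over the TSS, none), Tead4, a factor of trophectoderm (7752 bp, 14.7%), Prdm1, a germ cell repressor (2 enhancers, of 19802 bp with 5.55% and 7230 bp with none), and Cdk6, a cell cycle kinase (9275 bp, 13.9%). Of the 24 ribosomal protein genes and of the 20 muscle and liver genes 0 had one, beside 1.89% of all named genes.

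The 10 genes first among the 16 with 2 long enhancers, ordered by summed length, were Mir6352, Prag1, Prdm1, Atp1b1, Bcat1, Apela, Enpp3, Jarid2, Shb and Helz. Coverage within such a pair ranged from equal to far apart. Jarid2 had 88.9% covered in both of its pair, and Mir6352 15.2% of 33018 bp and 16.2% of 6603 bp. Apela, a secreted ligand of the apelin receptor, had one of 6661 bp that was covered to 100% and one of 14612 bp over its TSS with 53.5%. Atp1b1, a subunit of the sodium-potassium pump, had one of 14239 bp with 48.9% and one of 10396 bp with none. Bcat1, an aminotransferase of branched-chain amino acids, had 1 EpiLC enhancer in each of its pair, of 10237 and 13234 bp. Enpp3, an ectonucleotide pyrophosphatase, had 96.5% of 7772 bp and 64.9% of 9389 bp. Shb, an SH2-domain adaptor, had 76.8% of 9914 bp and 27.1% of 5897 bp. Helz, a helicase, had 36.7% of 8259 bp and 14.2% of 7053 bp. Prag1 had 12.9% of 13608 bp covered by 3 EpiLC enhancers and 0 of 13753 bp.

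The longest of all, 35621 bp in an intron of Clybl (chr14:122255317-122290937), touched 5 EpiLC enhancers that covered 33.0%, the highest number in any long enhancer. The next, 33018 bp in an intron of Epha4, an ephrin receptor, and near the microRNA gene Mir6352 (chr1:77440263-77473280), had 4 that covered 15.2%. One of 25203 bp at 57.1 kb from the TSS of Tle4, a Groucho corepressor (chr19:14655254-14680456), was covered to 63.7%. The other 7 of the 10 longest lay in or near Ccl25 (28549 bp, 24.2% covered), Pmaip1 (26189 bp, none), Trim2 (25605 bp, 28.0%), Chd7 (25482 bp, 7.34%), Hecw1 (24972 bp, 27.9%), Ankfn1 (24917 bp, none) and Enox1 (24596 bp, 5.79%). The one named for Chd7, a chromatin remodeller, is 241 kb from that gene's TSS. The other 5 with 4 EpiLC enhancers were 11267 bp near Psmg4 (32.8% covered), 16808 bp in Ptprg (22.0%), 16078 bp near Kiz (17.9%), 6825 bp in Cacna2d3 (38.8%) and 5944 bp near Dll1, a Notch ligand (63.4%), the last 2 named after their values were seen.

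The 5 longest without any EpiLC enhancer included the one near Pmaip1, which encodes the pro-apoptotic protein NOXA (chr18:66403542-66429730), and the one in an intron of Ankfn1 (chr11:89611357-89636273). The others were 23554 bp near Glrx5, a glutaredoxin of iron-sulfur cluster assembly, 21128 bp in Camkmt, a calmodulin methyltransferase, and 20529 bp near Onecut1, a homeodomain factor of liver and neurons. The last spanned 2 TSSs of the gene list. Of these 5, the Ankfn1 enhancer had 3 composite cores and the other 4 had none.

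**Figure D5:**
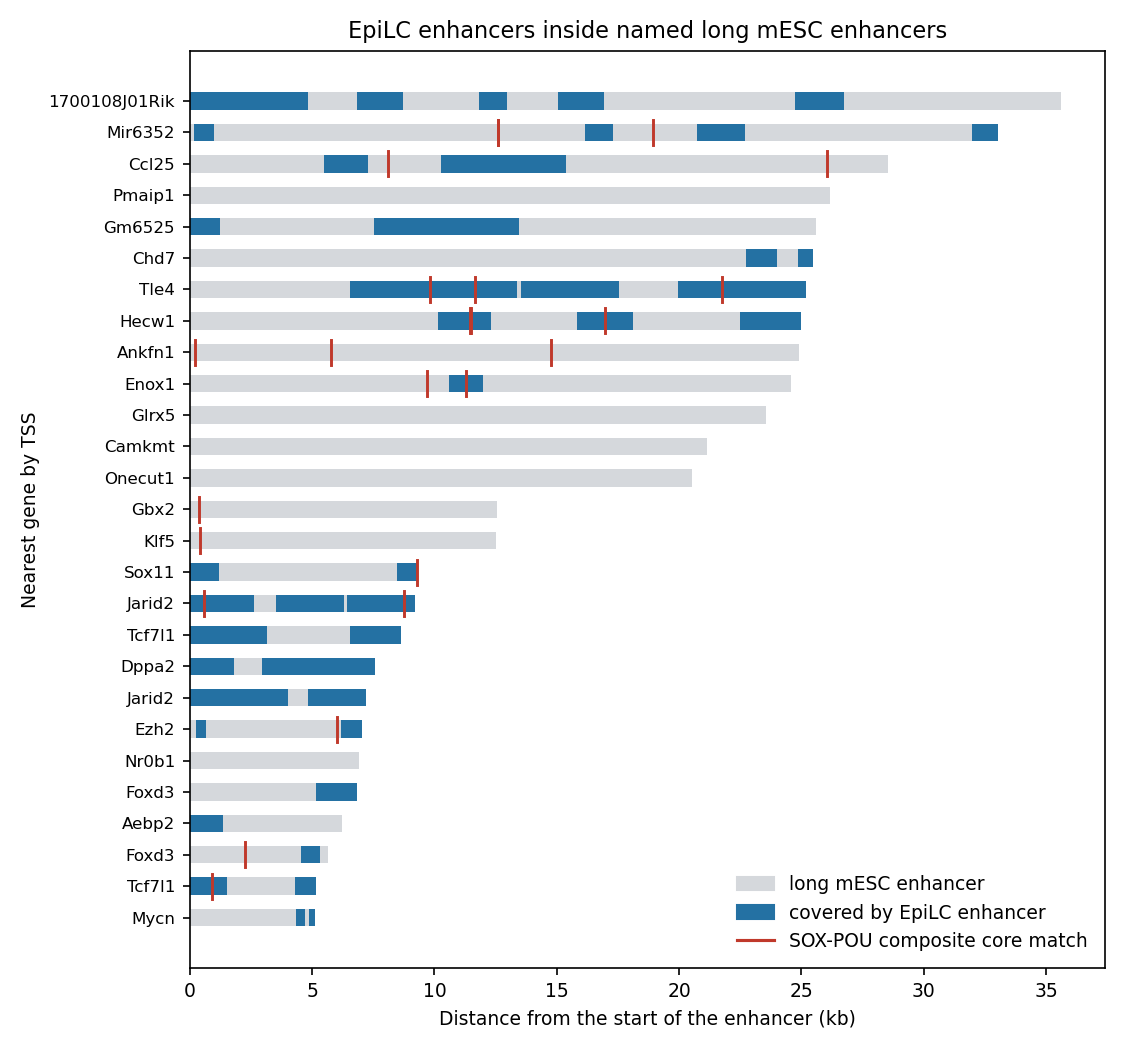
Long mESC enhancers named among the 10 longest, the 5 longest without an EpiLC enhancer, and the naive, general, formative and Polycomb gene lists. Each row is labelled by the gene with the TSS nearest the enhancer's centre. Rows are drawn to scale by distance from the start of the enhancer (horizontal axis, kb). Grey is the enhancer, blue the parts inside EpiLC enhancers and red ticks composite core matches. The row labelled 1700108J01Rik is the 35621 bp enhancer in Clybl and that labelled Gm6525 the 25605 bp one in Trim2, while Gbx2, Klf5 and Nr0b1 have no blue part.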

How the data were processed

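The deposited tables give base positions (chromosome, start, end, strand) of regions, which the authors lifted over to mm10, per the series' design text. Tools named in the submitters' processing notes are bedtools 2.29.2, Bowtie2 2.3.4.1 and Trimmomatic 0.38, without settings. No counts or signal per library were used, and depth is unknown. Starts were read as counted from 0 and printed counted from 1, which leaves enhancer starts uncertain by 1 bp. Read so, 12037 starts of gene intervals match RefSeq genes, against 329 otherwise. Of 24402 gene intervals, 24263 were kept and 23679 named (RefSeq GRCm38.p6 and GENCODE M21). Of those kept, 65 were longer than any annotated gene and were not used.

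Shares were compared by two-sided Fisher's exact tests with Benjamini-Hochberg adjustment over 29 comparisons, 17 planned and 12 added after the data were seen (end windows, first-row regions, EpiLC-touching against other long enhancers). Intervals are exact (Clopper-Pearson, 95%) and cover counting error only. Scripts were tested on simulated data (Python 3.11.15, scipy 1.17.1). Members, the 18 gene lists and the tests were chosen with earlier results of these data known. Named enhancers are the 10 longest, the 5 touching most EpiLC enhancers, the 5 longest touching none, the 3 nearest the threshold on each side, those of the 10 genes with most long enhancers, and those of up to 4 genes per list.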

Additional observations from a re-analysis of the deposited data

How the results depend on the processing

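Of 269 values recomputed under 20 other settings, 228 kept their direction and their side of the threshold (or, for counts, stayed within 1.5 times), 19 kept their direction but no longer passed, 19 changed sign and 3 counts moved. The lower touching of the centre in long than in short enhancers passed in all 10 alternatives, with differences from -46.3 to -16.6 points, as did the lower shares of the octamer, the composite core and the SOX motif. Against short enhancers of 1000 to under 5000 bp, touching an EpiLC enhancer differed by 2.97 points and no longer passed, and the nearness to a TSS (-2.60 points), the start end (-16.7 points) and the far end (-17.1 points) reversed. With 50% of both regions shared, touching reversed to -0.945 points. The covered share with a limit of 25% differed by -2.21 points. Nearness to a TSS did not pass with a threshold of 10000 bp (3.31 points), a limit of 20 kb (3.09 points) or GENCODE start sites (2.60 points). Motifs that passed numbered 4 and not 7 with a threshold of 10000 bp, with short enhancers of 1000 to under 5000 bp and with a central window of 1000 bp. The other 15 changes of sign were in differences that passed the test in neither setting. They were STAT at a threshold of 10000 bp (-1.96 points), with the first rows included (-0.161), against short enhancers of 1000 to under 5000 bp (-0.860) and in windows of 1000 bp (-2.16) and 200 bp (-1.26); GRHL/TFCP2L1 at a threshold of 10000 bp (0.121) and against those short enhancers (0.0394); nearness to first-row regions at 10000 bp (-0.0343) and against those short enhancers (-1.01); the centre in a gene with the first rows included (-0.450) and with all gene intervals kept (-1.37); the centre within 1 kb of a TSS with the first rows included (0.268); and, between EpiLC-touching and other long enhancers, the octamer in an end window at 7500 bp (1.49) and 10000 bp (2.65) and the composite core at 10000 bp (-0.0872). The cause was not tested. No paired analysis was possible because the tables hold no value per library.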
